A study of Homo sapiens with 36 samples.

Results

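The BCL2 family decides whether the outer mitochondrial membrane of a stressed cell stays closed. Its transcripts were followed here in human THP-1 macrophages given lipopolysaccharide (LPS) with interferon-gamma, with and without the gene IRG1. The 10 members were chosen by name, as the gene rows that map to BCL2, BCL2L1, BCL2A1, MCL1, BAX, BAK1, BID, BBC3, PMAIP1 and BCL2L11, out of 21599 rows in the deposited table. Each name matched 1 row, and all 10 passed the filter on low values, which asked for a log2 value of at least 3.32 in at least 3 of the 36 libraries. BCL2L11 reached that value in 34 libraries, BBC3 in 35 and each of the other 8 members in 36.

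In this family the anti-apoptotic proteins BCL2, BCL2L1 (BCL-XL), BCL2A1 (BFL1) and MCL1 bind and hold back the pore-forming effectors BAX and BAK1. The BH3-only proteins BID, BBC3 (PUMA), PMAIP1 (NOXA) and BCL2L11 (BIM) report damage, cytokine withdrawal or death receptor signals, and they act by occupying the anti-apoptotic proteins or by activating the effectors. Open pores release cytochrome c, which starts the caspase cascade. In macrophages, BCL2A1 is known as a target of NF-κB. MCL1 is known as a short-lived protein.

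THP-1 is an established line from a human acute monocytic leukaemia. The cells were IRG1 knockout (KO) or wild type (WT). IRG1 is the older name of ACOD1, which makes itaconate from cis-aconitate. Cells of every group, vehicle included, had first been differentiated with 100 nM PMA for 72 h. The 12 groups were KO stimulated, KO vehicle, WT stimulated and WT vehicle at 6, 12 and 24 h, with 3 libraries each, where stimulated means 200 ng/mL LPS with 200 ng/mL interferon-gamma. The labels do not say how the knockout was made, whether the KO line is 1 clone, or whether the 3 replicates are separate cultures, so p-values measure the spread between these samples, which may be technical. All values below are deposited log2 values. A level is followed by ± SD and a log2 change by ± its standard error, and sets of 3 values for 1 group run in the order of replicates 1, 2 and 3. Tests were limma's over 21232 genes, and a change counts as called where its Benjamini-Hochberg adjusted p lies under 0.05. The depth of the libraries is unknown, because the table holds no counts.

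ACOD1 read 7.98 to 10.22 in the 9 KO stimulated libraries, 0.00 to 0.33 in the KO vehicle libraries, 9.20 to 12.76 in the WT stimulated libraries and 0.12 to 0.86 in the WT vehicle libraries, so its transcript was present in stimulated KO cells. In stimulated cells the KO minus WT change of ACOD1 was -3.31 ± 0.47, -2.69 ± 0.47 and -1.48 ± 0.47 at 6, 12 and 24 h. The limma adjusted p was 3.74e-05, 8.70e-04 and 0.0597, and the groups did not overlap at 6 or 12 h. Which part of the gene was altered is not given in the labels, so these values do not check the genotype labels. KO stimulated replicate 2 had the highest ACOD1 value of its group at 12 h (10.22) and 24 h (9.78) and the lowest at 6 h (8.31, against 8.35 and 8.80). Each of 9 monocyte and macrophage markers, among them CD14, CD68 and CSF1R, reached 3.32 in 36 of 36 libraries. Over all genes tested, 2 libraries stood apart from their groups. KO stimulated 6 h replicate 2 had a mean correlation of 0.839 with its group and WT stimulated 24 h replicate 3 had 0.870, where the highest was 0.964. Calls that changed when both were left out are given with and without them.

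Stimulation was followed by higher levels of most of the 10 members, pro- and anti-apoptotic alike, and none of the 10 was called lower. In stimulated KO cells 7, 6 and 8 of the 10 members were called higher than in vehicle at 6, 12 and 24 h, where 16.2%, 15.5% and 17.3% of all genes tested were called higher. In stimulated WT cells 7, 7 and 6 members were called higher, where 15.1%, 16.8% and 20.2% of all genes were. By limma the count called lower was 0 in each of the 6 comparisons, against 22.5%, 19.5% and 21.6% of all genes in KO cells and 20.9%, 21.7% and 26.1% in WT cells. At an unadjusted p below 0.05, 8, 6 and 8 members differed in KO cells and 7, 8 and 7 in WT cells, each of them higher. Shares of all genes were computed for called changes alone, and not at an unadjusted p or with libraries left out or a block. BCL2, BCL2A1, BID and PMAIP1 were called in every one of the 6 comparisons, MCL1 and BBC3 in 5, BAK1 and BCL2L11 in 3, BCL2L1 in 1 and BAX in 0.

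The median change of the 10 members was 1.72, 1.47 and 1.63 in KO cells and 1.71, 1.34 and 1.17 in WT cells, while the median of all genes was -0.20, -0.12 and -0.08 in KO cells and -0.17, -0.18 and -0.11 in WT cells. Shifting each library to a common median changed none of the 200 member calls. That shift could change little, because the library medians already lay between 5.4691 and 5.4753. Without the 2 libraries that stood apart, 8 members were called at 6 h in KO cells and 6 at 24 h in WT cells. Without the KO libraries of replicate 2 the KO counts were 8, 5 and 6. With the replicate number as a block, the counts were 7, 7 and 8 in KO cells and 7, 8 and 7 in WT cells. Genes listed as markers of other cell types also moved with stimulation, although all samples are labelled as the THP-1 line. The log2 of the summed linear levels of the T cell markers in the table (3 of 4, CD3E having no row) was 4.63 to 8.82 in stimulated libraries and 6.07 to 11.71 in vehicle libraries. The highest of these sums were mostly TRAC, which read 4.00 to 11.70, since CD8A read at most 6.26 and CD3D at most 3.89. The fibroblast markers (2 of 3, COL1A2 having no row) summed to 4.10 to 5.21 in KO stimulated, 3.16 to 4.31 in KO vehicle, 6.00 to 7.87 in WT stimulated and 3.98 to 5.69 in WT vehicle libraries. Neutrophil markers summed to 6.90 to 10.84 in stimulated and 7.67 to 10.40 in vehicle libraries, with MPO at most 4.30. B cell, epithelial, endothelial and erythroid markers summed to at most 5.86, 5.96, 6.09 and 5.88. The part of these markers in the results on the family was not tested. In bulk samples, fewer cells of a type and less RNA per cell cannot be told apart.

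**Figure D1:**
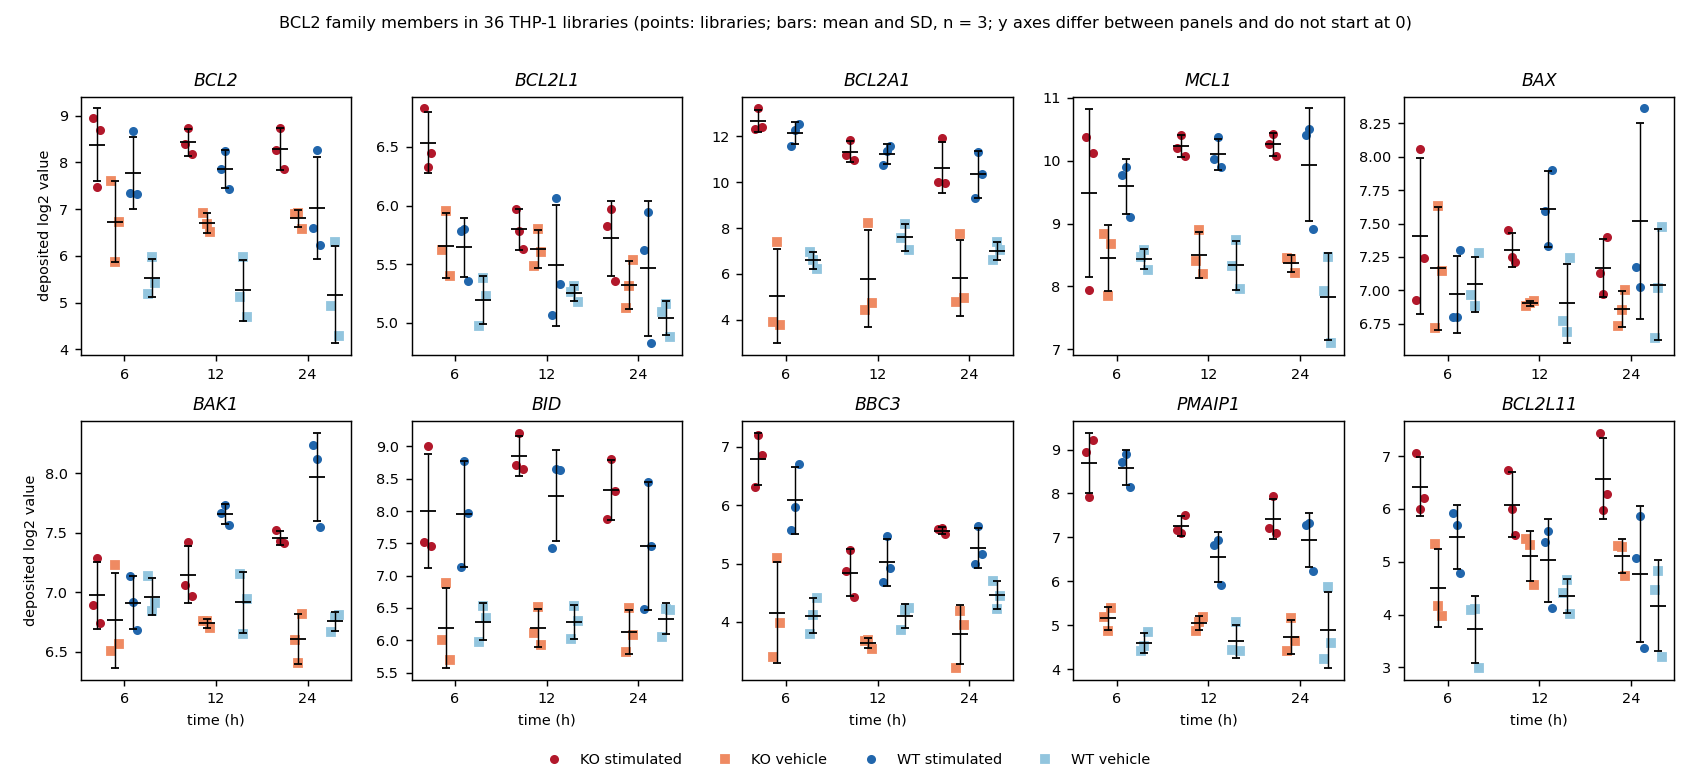
Deposited log2 value (y axis, its range set per gene) of each of the 10 family members at 6, 12 and 24 h (x axis). Each point is 1 library, drawn from left to right as KO stimulated, KO vehicle, WT stimulated and WT vehicle, and black bars give the mean and SD of 3 libraries. BCL2A1 stands at 9.30 or more in the 18 stimulated libraries and at 8.23 or less in the 18 vehicle libraries, while the points of BAX overlap between treatments.

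BCL2A1, an anti-apoptotic member found mainly in blood cells, had the widest range of group means of the 10, 7.61. At 6 h it read 12.33, 13.21 and 12.40 in KO stimulated cells, against 3.92, 7.39 and 3.79 in KO vehicle cells. In WT cells the 6 h values were 11.59, 12.28 and 12.52 with stimulation, against 6.96, 6.60 and 6.23 with vehicle. Every stimulated library lay above every vehicle library, and among the KO vehicle libraries replicate 2 stood far above the other two. At 12 h the values were 11.18, 11.83 and 10.96 in KO stimulated, 4.43, 8.23 and 4.73 in KO vehicle, 10.74, 11.34 and 11.59 in WT stimulated and 7.58, 8.19 and 7.02 in WT vehicle cells. At 24 h they were 10.00, 11.90 and 9.95 in KO stimulated, 4.78, 7.72 and 4.95 in KO vehicle, 9.30, 11.33 and 10.37 in WT stimulated and 6.62, 7.40 and 7.02 in WT vehicle cells. The separation held at both later times, and KO vehicle replicate 2 was again the high one. The change with stimulation was 7.61 ± 0.85, 5.52 ± 0.85 and 4.80 ± 0.85 in KO cells at 6, 12 and 24 h (limma adjusted p = 3.09e-08, 7.63e-06 and 4.67e-05). In WT cells it was 5.53 ± 0.85, 3.63 ± 0.85 and 3.32 ± 0.85 (limma adjusted p = 7.31e-06, 0.0012 and 0.0021).

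The RefSeq start of BCL2A1 lies on chromosome 15, and the window from 250 bases before to 50 bases after it is printed here because this gene moved most. It spans chr15:79971147-79971446 on the minus strand of GRCh38.p14, a later build than the GRCh37.p5 named in the submitters' notes. It is written 5′ to 3′ on the gene's strand with motif matches in capitals.
BCL2A1: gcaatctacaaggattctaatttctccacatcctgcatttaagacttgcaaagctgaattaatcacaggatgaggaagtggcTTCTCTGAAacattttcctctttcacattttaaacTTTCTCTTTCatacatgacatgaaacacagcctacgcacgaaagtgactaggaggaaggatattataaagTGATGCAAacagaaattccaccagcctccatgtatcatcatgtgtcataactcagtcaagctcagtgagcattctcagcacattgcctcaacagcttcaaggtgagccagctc
The motifs searched on both strands were the interferon-stimulated response element core GAAANNGAAA, the gamma-activated sequence TTCNNNGAA, the CHOP-ATF composite TGATGNAA and the κB motif GGGNNNNNCC. The BCL2A1 window held 1 gamma-activated sequence at positions -168 to -160 from the start, 1 response element core at -133 to -124 on the opposite strand and 1 CHOP-ATF composite at -63 to -56. Of all 27305 RefSeq promoter windows of this length, 7.9% held the gamma-activated sequence, 3.6% the response element core, 3.7% the CHOP-ATF composite and 58.0% the κB motif. No κB match stood in the BCL2A1 window. A match describes letters and is not evidence of a bound site. Of the 10 members 9 matched a promoter entry (not MCL1), and 6 of the 9 held a κB match, 1 a gamma-activated sequence, 2 a response element core and 1 a CHOP-ATF composite.

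BCL2, the founding member and a target of selective inhibitors in leukaemia, was higher with stimulation in both genotypes at each time. At 12 h, BCL2 read 8.39, 8.74 and 8.17 in KO stimulated, 6.93, 6.68 and 6.51 in KO vehicle, 7.86, 8.25 and 7.44 in WT stimulated and 5.13, 5.98 and 4.69 in WT vehicle cells. The stimulated and vehicle libraries did not overlap within either genotype at that time. They overlapped in KO cells at 6 h (lowest stimulated 7.49, highest vehicle 7.61) and in WT cells at 24 h (lowest stimulated 6.23, highest vehicle 6.31). Over the 3 times BCL2 changed by 1.64 ± 0.51, 1.73 ± 0.51 and 1.48 ± 0.51 in KO cells (limma adjusted p = 0.0121, 0.0093 and 0.0226) and by 2.24 ± 0.51, 2.59 ± 0.51 and 1.86 ± 0.51 in WT cells (limma adjusted p = 0.0010, 2.21e-04 and 0.0040). The KO call at 6 h did not pass without KO stimulated replicate 1 (1.36) or KO vehicle replicate 2 (1.21), and the KO call at 24 h not without KO stimulated replicate 2 (1.25) or KO vehicle replicate 3 (1.37). The WT call at 24 h did not pass without WT stimulated replicate 2 (1.24). Without all KO libraries of replicate 2, the KO calls at 12 and 24 h did not pass (1.56 and 1.31, limma adjusted p = 0.0606 and 0.1125).

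MCL1 was higher with stimulation at 12 and 24 h. Its 9 KO stimulated libraries ran from 7.94 to 10.43 with a median of 10.20, against 7.84 to 8.90 and a median of 8.44 in KO vehicle cells. Its 9 WT stimulated libraries ran from 8.91 to 10.50 with a median of 9.91, against 7.10 to 8.74 and a median of 8.32 in WT vehicle cells. The lowest stimulated values of MCL1 were those of the 2 libraries that stood apart. The change was 1.03 ± 0.44, 1.73 ± 0.44 and 1.89 ± 0.44 in KO cells (limma adjusted p = 0.0665, 0.0030 and 0.0012) and 1.16 ± 0.44, 1.77 ± 0.44 and 2.11 ± 0.44 in WT cells (limma adjusted p = 0.0424, 0.0024 and 3.16e-04). At 6 h the KO stimulated values were 10.38, 7.94 and 10.12, and without replicate 2 the change there was 1.80 (limma adjusted p = 4.44e-04). The WT call at 6 h did not pass without any 1 of WT vehicle replicates 1, 2 or 3 or WT stimulated replicates 1 or 2 (1.00 to 1.23, limma adjusted p = 0.0660 to 0.1325).

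BCL2L1, which encodes the long anti-apoptotic and the short pro-apoptotic BCL-X isoforms, was called with stimulation in 1 of the 6 comparisons, and these gene-level values do not separate the isoforms. Its change was 0.88 ± 0.27, 0.17 ± 0.27 and 0.40 ± 0.27 in KO cells and 0.45 ± 0.27, 0.24 ± 0.27 and 0.42 ± 0.27 in WT cells. The call was that at 6 h in KO cells (limma adjusted p = 0.0095). There BCL2L1 read 6.83, 6.33 and 6.45 in stimulated against 5.62, 5.95 and 5.40 in vehicle cells, without overlap. That call did not pass without KO stimulated replicate 1 (0.73) or KO vehicle replicate 3 (0.75), and at 24 h in WT cells the change was called without stimulated replicate 3 (0.74, limma adjusted p = 0.0265).

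**Figure D2:**
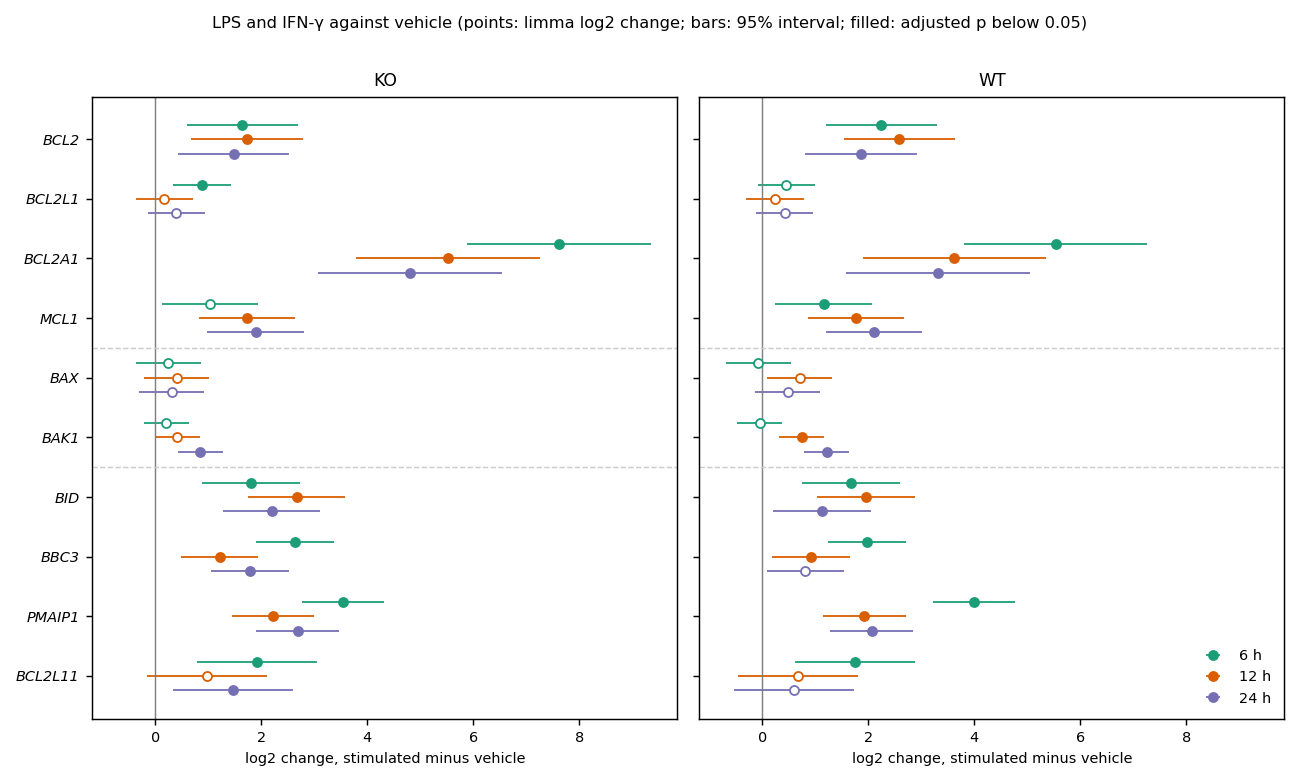
Log2 change with LPS and interferon-gamma (x axis, stimulated minus vehicle) of each member (y axis) at 3 times, in KO cells on the left and WT cells on the right. Points are limma estimates, bars are 95% intervals, filled points were called, and dashed lines part the anti-apoptotic, effector and BH3-only members. BCL2A1 lies furthest right in both genotypes, and BAX has no filled point.

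As a pair, the effectors had the smallest median change of the 3 roles at each time in both genotypes, a description over few genes with no test. The median change of BAX and BAK1 was 0.23, 0.41 and 0.58 in KO cells and -0.06, 0.72 and 0.84 in WT cells, against 2.28, 1.72 and 1.99 in KO cells and 1.86, 1.42 and 0.97 in WT cells for the 4 BH3-only members. For the 4 anti-apoptotic members it was 1.34, 1.73 and 1.69 in KO cells and 1.70, 2.18 and 1.98 in WT cells. BAX, the effector that moves from the cytosol to mitochondria, changed by 0.24 ± 0.30, 0.40 ± 0.30 and 0.31 ± 0.30 in KO cells and by -0.07 ± 0.30, 0.71 ± 0.30 and 0.48 ± 0.30 in WT cells. The widest of its 95% intervals upward ended at 1.32, in WT cells at 12 h. There BAX read 7.59, 7.33 and 7.90 in stimulated against 6.77, 6.69 and 7.24 in vehicle cells. That change missed the threshold (limma adjusted p = 0.0626), and passed with the replicate number as a block (0.0306) and without WT vehicle replicate 3 (0.88, limma adjusted p = 0.0447).

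BAK1, the effector that resides on mitochondria, was called higher at 12 and 24 h in WT cells and at 24 h in KO cells. In WT cells its change was -0.05 ± 0.21 at 6 h, 0.74 ± 0.21 at 12 h and 1.21 ± 0.21 at 24 h (limma adjusted p = 0.8798, 0.0056 and 2.51e-05). At 24 h BAK1 read 8.24, 8.12 and 7.55 in WT stimulated cells, against 6.67, 6.79 and 6.81 in WT vehicle cells. In KO cells its change was 0.21 ± 0.21, 0.41 ± 0.21 and 0.85 ± 0.21 (limma adjusted p = 0.4581, 0.1280 and 0.0017). The 24 h values in KO cells were 7.52, 7.43 and 7.41 with stimulation and 6.60, 6.41 and 6.82 with vehicle. The groups did not overlap at 24 h in either genotype. Its WT change at 24 h was larger than those of BID, BBC3, BCL2L11 and BCL2L1 there. BAK1 has pseudogene copies, BAK1P1 and BAK1P2, with rows of their own in the table, so reads could have been split among them.

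PMAIP1, a BH3-only protein known to bind MCL1, had the largest change after BCL2A1 at 6 h in both genotypes and at 24 h in KO cells. At 12 h its change was below that of BID in KO cells and those of BCL2 and BID in WT cells, and at 24 h in WT cells below that of MCL1. Its level with stimulation was highest at 6 h. At 6 h it read 8.95, 7.93 and 9.22 in KO stimulated, 5.19, 4.87 and 5.40 in KO vehicle, 8.72, 8.91 and 8.14 in WT stimulated and 4.41, 4.52 and 4.85 in WT vehicle cells. Its lowest stimulated library at 6 h, at 7.93, lay well above its highest vehicle library, at 5.40. The changes were 3.54 ± 0.38, 2.22 ± 0.38 and 2.69 ± 0.38 in KO cells (limma adjusted p = 1.70e-08, 3.76e-05 and 2.00e-06) and 3.99 ± 0.38, 1.93 ± 0.38 and 2.06 ± 0.38 in WT cells (limma adjusted p = 2.41e-09, 2.17e-04 and 6.95e-05). The PMAIP1 window, shown as the next most responsive gene after BCL2A1 at 6 h, spans chr18:59899746-59900045 on the plus strand of GRCh38.p14.
PMAIP1: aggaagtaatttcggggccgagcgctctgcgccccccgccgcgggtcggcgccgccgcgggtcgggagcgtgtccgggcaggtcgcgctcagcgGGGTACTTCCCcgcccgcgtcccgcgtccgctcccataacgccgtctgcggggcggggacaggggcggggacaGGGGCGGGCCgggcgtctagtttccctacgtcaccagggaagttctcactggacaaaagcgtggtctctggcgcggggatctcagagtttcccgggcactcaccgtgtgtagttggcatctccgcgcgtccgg
Its capitals are 3 κB matches, at positions -156 to -147, -155 to -146 (on the opposite strand, overlapping the first) and -83 to -74. It held none of the 3 other motifs, unlike BCL2A1, which held those and no κB match.

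BBC3, a BH3-only protein and p53 target, was also highest at 6 h. In KO cells BBC3 read 6.31, 7.20 and 6.86 with stimulation and 3.40, 5.10 and 3.98 with vehicle at 6 h. In WT cells it read 5.58, 5.96 and 6.71 with stimulation and 3.80, 4.11 and 4.41 with vehicle. The groups did not overlap at 6 h. Its change was 2.63 ± 0.36, 1.21 ± 0.36 and 1.78 ± 0.36 in KO cells (limma adjusted p = 9.97e-07, 0.0089 and 2.26e-04) and 1.98 ± 0.36, 0.92 ± 0.36 and 0.81 ± 0.36 in WT cells (limma adjusted p = 7.01e-05, 0.0418 and 0.0632). In WT cells the 24 h change passed with the replicate number as a block (limma adjusted p = 0.0283). The WT call at 12 h did not pass without any 1 of WT vehicle replicates 1, 2 or 3 or WT stimulated replicates 2 or 3 (0.70 to 0.99), and the KO call at 12 h not without KO stimulated replicate 2 (1.02). The BBC3 window (chr19:47232618-47232917, minus strand of GRCh38.p14) held a pair of overlapping response element cores after the start, at positions 25 to 34 and 31 to 40, which together read gaGAAACTGAAAAAGAAAcgg with the cores in capitals. Apart from BCL2A1, it was the sole member window with that motif, and it also held a pair of overlapping κB matches at -84 to -74.

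BID, which death receptor caspases cleave to its active form, was called in all 6 comparisons. Its 9 KO stimulated libraries ran from 7.46 to 9.21 with a median of 8.64, above the 5.70 to 6.89 of KO vehicle cells. Its 9 WT stimulated libraries ran from 6.48 to 8.77 with a median of 7.97, and the lowest of them, replicate 1 at 24 h, lay below the WT vehicle maximum of 6.54. BID changed by 1.81 ± 0.45, 2.67 ± 0.45 and 2.20 ± 0.45 in KO cells (limma adjusted p = 0.0020, 2.73e-05 and 2.69e-04) and by 1.67 ± 0.45, 1.96 ± 0.45 and 1.12 ± 0.45 in WT cells (limma adjusted p = 0.0042, 9.91e-04 and 0.0407). The WT call at 24 h did not pass without any 1 of WT vehicle replicates 1, 2 or 3 or WT stimulated replicates 2 or 3, with changes of 0.63 to 1.20. It was 0.63 (limma adjusted p = 0.2819) without WT stimulated replicate 2.

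BCL2L11, the BH3-only protein induced in many blood cells when growth factors are withdrawn, was called with stimulation at 6 h in both genotypes and at 24 h in KO cells. At 6 h it read 7.07, 6.00 and 6.20 in KO stimulated, 5.35, 4.17 and 3.98 in KO vehicle, 5.92, 5.70 and 4.79 in WT stimulated and 4.08, 4.10 and 2.99 in WT vehicle cells. The groups did not overlap, although replicates within a group spread by about 1 log2 unit. Its change was 1.92 ± 0.55, 0.97 ± 0.55 and 1.46 ± 0.55 in KO cells (limma adjusted p = 0.0067, 0.1795 and 0.0367) and 1.75 ± 0.55, 0.67 ± 0.55 and 0.60 ± 0.55 in WT cells (limma adjusted p = 0.0141, 0.3553 and 0.3945). With the replicate number as a block the KO change at 12 h passed (limma adjusted p = 0.0343). The KO call at 24 h did not pass without KO stimulated replicate 1 (1.03) or any 1 of KO vehicle replicates 1, 2 or 3 (1.27 to 1.56), and the WT call at 6 h not without WT stimulated replicate 1 (1.52) or WT vehicle replicate 3 (1.38).

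The genotypes differed in few members. In stimulated cells 1 member was called at 6 h, 0 at 12 h and 1 at 24 h by limma, where 8.71%, 3.45% and 5.87% of all genes were called in either direction. In vehicle cells 0 members were called at each time, where 8.19%, 5.24% and 3.98% of all genes were. At an unadjusted p below 0.05, 1, 1 and 3 members differed in stimulated cells and 1, 2 and 1 in vehicle cells. The counts of called members lie near the shares of all genes called. The counts at an unadjusted p have no such share beside them. Marker sums, again as the log2 of summed linear levels, differed between genotypes as well. The 9 macrophage markers summed to 12.55 to 13.57 in KO and 13.42 to 14.41 in WT stimulated cells. In vehicle cells they summed to 12.79 to 13.66 in KO and 13.91 to 15.27 in WT, without overlap. T cell markers summed to 8.26 to 11.71 in KO and 6.07 to 11.07 in WT vehicle cells, and to 4.71 to 8.82 in KO and 4.63 to 7.70 in WT stimulated cells. Neutrophil markers summed to 9.08 to 10.40 in KO and 7.67 to 9.52 in WT vehicle cells, and to 6.90 to 10.84 in KO and 6.96 to 9.39 in WT stimulated cells. Their part in the differences between genotypes was not tested.

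BCL2L1 was the member called at 6 h. It read 6.83, 6.33 and 6.45 in KO stimulated and 5.78, 5.80 and 5.35 in WT stimulated cells, without overlap, a change of 0.89 ± 0.27 (limma adjusted p = 0.0324). The call did not pass without KO stimulated replicate 1 (0.74) or without WT stimulated replicate 1 (0.96), 2 (0.97) or 3 (0.75), nor when the fit held the 6 libraries compared alone (limma adjusted p = 0.2930). BCL2L1 was 0.31 ± 0.27 and 0.25 ± 0.27 higher in KO stimulated cells at 12 and 24 h, neither of which passed.

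BCL2L11 was the member called at 24 h. It read 7.44, 5.99 and 6.28 in KO stimulated and 5.06, 5.87 and 3.36 in WT stimulated cells, a change of 1.80 ± 0.55 (limma adjusted p = 0.0496). The lowest KO value stood just above the highest WT value, and the lowest WT value was that of a library that stood apart. Without that library, WT stimulated 24 h replicate 3, the change was 1.10 (limma adjusted p = 0.3579). The call did not pass either without KO stimulated replicate 1 (1.37) or 3 (1.95) or WT stimulated replicate 1 (1.95). In the other 5 comparisons of genotype BCL2L11 was 0.75 to 1.05 higher in KO cells, without a call.

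BCL2 was higher in KO cells in all 6 comparisons of genotype, by 0.60, 0.58 and 1.25 in stimulated and 1.20, 1.44 and 1.63 in vehicle cells (each ± 0.51), and none passed. In vehicle cells at 24 h BCL2 read 6.90, 6.93 and 6.59 in KO against 4.92, 6.31 and 4.28 in WT cells, without overlap (limma adjusted p = 0.0726). With the replicate number as a block this difference passed (limma adjusted p = 0.0287), and without WT vehicle replicate 2 it was 2.20 (limma adjusted p = 0.0172). In stimulated cells at 24 h the BCL2 change was 1.87 without WT stimulated replicate 2 (limma adjusted p = 0.0247). At the same time and treatment BID was 0.87 ± 0.45 higher in KO cells, which passed with the block alone (limma adjusted p = 0.0418), so that 2 members were called with the block and 1 without. BAK1 was 0.51 ± 0.21 lower in KO than WT stimulated cells at 12 and at 24 h (log2 change -0.51 at both, limma adjusted p = 0.1918 and 0.1433), with no overlap of the groups at either time. It was called at 24 h without the 2 libraries that stood apart (-0.72, limma adjusted p = 0.0432).

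**Figure D3:**
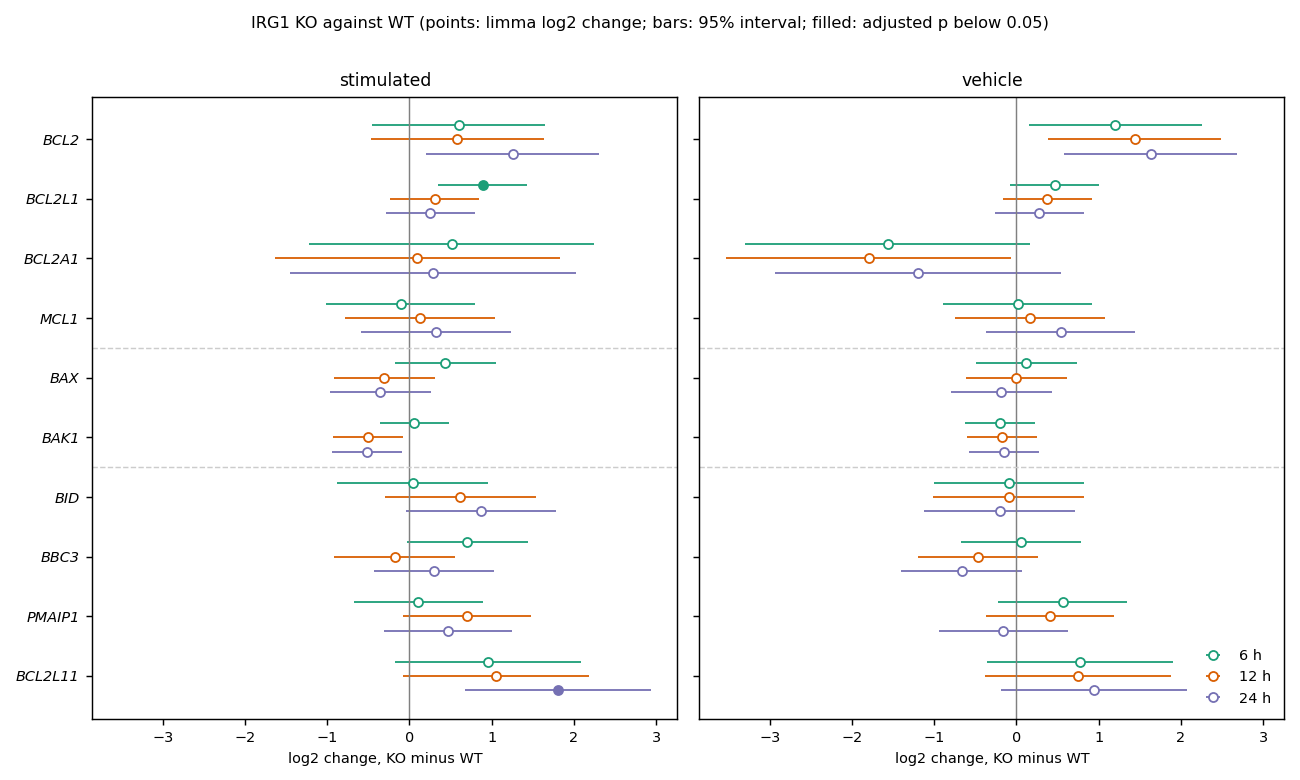
Log2 change between genotypes (x axis, KO minus WT) of each member (y axis) at 3 times, in stimulated cells on the left and vehicle cells on the right. Points are limma estimates and bars 95% intervals, filled where called. BCL2L1 at 6 h (0.89) and BCL2L11 at 24 h (1.80), both in stimulated cells, are the filled points, and the BCL2A1 intervals in vehicle cells are the widest on the negative side.

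BCL2A1 in vehicle cells was where KO replicates disagreed. With all 3 replicates its KO minus WT difference in vehicle cells was -1.57 ± 0.85, -1.80 ± 0.85 and -1.20 ± 0.85 at 6, 12 and 24 h (limma adjusted p = 0.3027, 0.2840 and 0.6029). KO replicates 1 and 3 read 3.79 to 4.95 there, below each WT vehicle library (6.23 to 8.19), while KO replicate 2 read 7.39, 8.23 and 7.72 at the 3 times, above each WT vehicle library of the same time. Without the KO libraries of replicate 2, a choice made after seeing these values, the difference was -2.75, -3.01 and -2.15 (limma adjusted p = 1.31e-04, 5.08e-05 and 0.0020). That choice also took the values that disagreed out of the estimate of spread. With only KO vehicle replicate 2 of the time in question left out, the limma adjusted p was 0.0390 at 6 h and 0.0245 at 12 h. The difference at 24 h was then not called. KO replicate 2 exceeded the mean of KO replicates 1 and 3 by 3.54, 3.64 and 2.86 in vehicle cells and by 0.84, 0.76 and 1.93 in stimulated cells. No other member had the same sign and a size over 1 at all 3 times in vehicle cells. BID and BBC3 also read higher in KO replicate 2 at all 3 times in both treatments. The excess was 0.48 to 1.52 for BID and 0.06 to 1.42 for BBC3. Whether the 3 KO numbers mark different cells or cultures is not given in the labels.

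**Figure D4:**
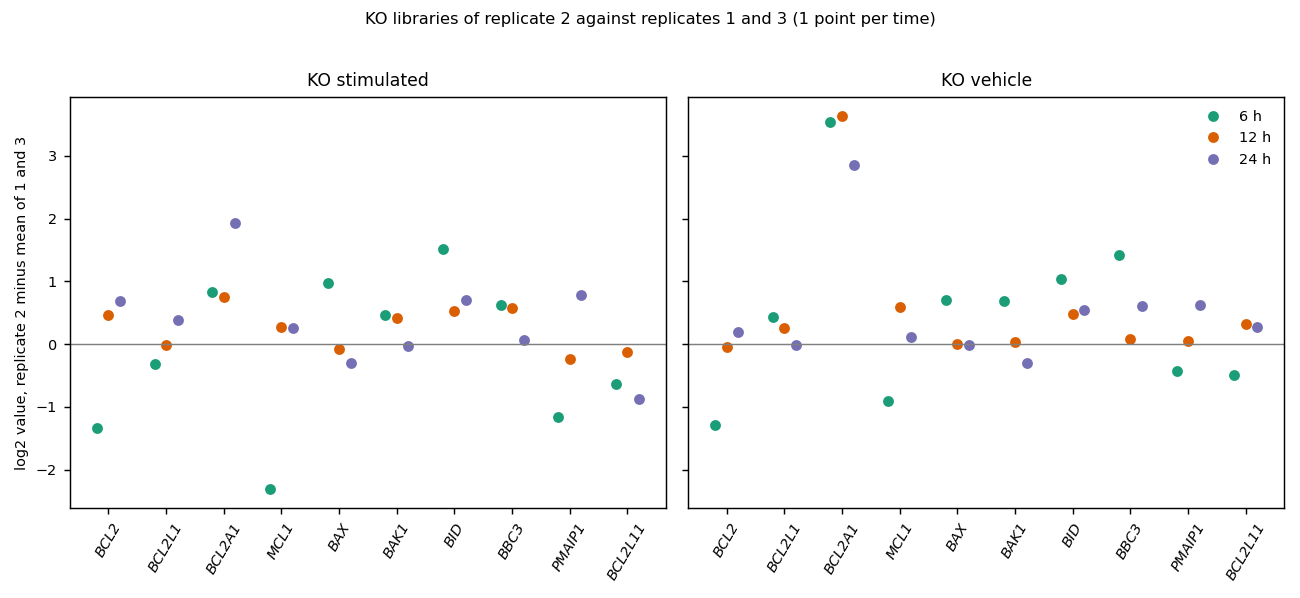
Log2 value of KO replicate 2 minus the mean of KO replicates 1 and 3 (y axis) for each member (x axis), stimulated on the left and vehicle on the right, 1 point per time. BCL2A1 in vehicle cells lies at 2.86 to 3.64, and MCL1 in stimulated cells at 6 h lies at -2.31.

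The difference between the 2 genotypes' responses was tested directly, as the KO change with stimulation minus the WT change. No member was called by limma at 6, 12 or 24 h or on the mean of the 3 times, where 0.452%, 0.160%, 0.433% and 6.24% of all genes were called. At an unadjusted p below 0.05 the counts were 0, 0, 0 and 2, without a share of all genes at that threshold. On the mean of the 3 times BCL2A1 responded by 1.82 ± 0.69 more in KO cells (95% interval 0.40 to 3.24, limma adjusted p = 0.1217) and BBC3 by 0.64 ± 0.29 more (0.04 to 1.23, limma adjusted p = 0.2177). The BCL2A1 difference passed without KO vehicle replicate 2 of any 1 time (2.21, 2.23 and 2.14, limma adjusted p = 0.0262, 0.0234 and 0.0460 for 6, 12 and 24 h), and it was 2.54 without all KO libraries of replicate 2 (limma adjusted p = 4.06e-05). The stimulated levels of BCL2A1 differed between KO and WT by 0.52, 0.10 and 0.29 (each ± 0.85). For the other members the 95% interval of the mean difference ran from -1.47 at its lowest (BCL2) to 1.39 at its highest (BID).

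Between 24 h and 6 h the members were called about as often as all genes. Between 24 h and 6 h, 3 members were called in KO stimulated cells, all lower (27.5% of all genes called in either direction), and 2 in WT stimulated cells, 1 in each direction (22.8%). No member was called in KO vehicle cells (0.834% of all genes) or WT vehicle cells (0.0895%), nor did any reach an unadjusted p below 0.05 there, against 5 in KO stimulated and 4 in WT stimulated cells. PMAIP1 was lower at 24 h in both genotypes, by a change of -1.28 ± 0.38 in KO cells (limma adjusted p = 0.0137) and -1.64 ± 0.38 in WT cells (0.0025). BBC3 changed by -1.22 ± 0.36 in KO cells (limma adjusted p = 0.0118) and by -0.82 ± 0.36 in WT cells (0.10, and 0.0458 with the block). BCL2L1 changed by -0.82 ± 0.27 in KO cells (limma adjusted p = 0.0226) and by -0.18 ± 0.27 in WT cells (0.6731). BAK1 went the other way, 1.06 ± 0.21 higher at 24 h in WT cells (limma adjusted p = 4.82e-04) and 0.48 ± 0.21 in KO cells (0.0828).

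BCL2A1 was -2.03 ± 0.85 in KO and -1.80 ± 0.85 in WT stimulated cells between 24 and 6 h, which missed the threshold (limma adjusted p = 0.0745 and 0.1280). The WT value passed with the block (limma adjusted p = 0.0253), which together with BBC3 brought the WT count to 4 members. The KO value passed without stimulated 24 h replicate 2 (-2.67, limma adjusted p = 0.0414). Of the KO calls, PMAIP1 did not pass without stimulated 24 h replicate 1 (-1.17) or 3 (-1.12) or 6 h replicate 3 (-1.02), BCL2L1 not without 24 h replicate 3 (-0.64) or 6 h replicate 1 (-0.67), and BBC3 not without 6 h replicate 2 (-1.02). Without 24 h replicate 3 the KO count was 1, and BAK1 in KO cells was called without 6 h replicate 2 (0.64, limma adjusted p = 0.0388). MCL1 in KO stimulated cells was 0.78 ± 0.44 higher at 24 h than at 6 h, without a call. That difference was 0.01 (limma adjusted p = 0.9963) without 6 h replicate 2, a library that stood apart, and 1.23 (limma adjusted p = 0.0488) without 6 h replicate 1. In WT stimulated cells MCL1 was 0.35 ± 0.44 higher at 24 h (limma adjusted p = 0.6199). Without the 2 libraries that stood apart it was 0.86 higher there (limma adjusted p = 0.0476), which brought the WT count to 3 members.

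The members differed in where their spread over the 36 libraries lay. Treatment held 80.8% of the sum of squares of BCL2A1, 79.1% of PMAIP1, 74.2% of BID, 69.0% of MCL1, 61.5% of BBC3 and 57.8% of BCL2. It held 40.9% of BAK1, 35.3% of BCL2L11, 23.2% of BCL2L1 and 19.7% of BAX. Genotype held 25.5% of BCL2L11, 23.6% of BCL2L1 and 19.5% of BCL2, and at most 7.9% of any other member. The spread between replicates was the largest share for BAX, 61.1%, and for BCL2L1, 30.7%. BAK1 held 24.3% in interactions with time.

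**Figure D5:**
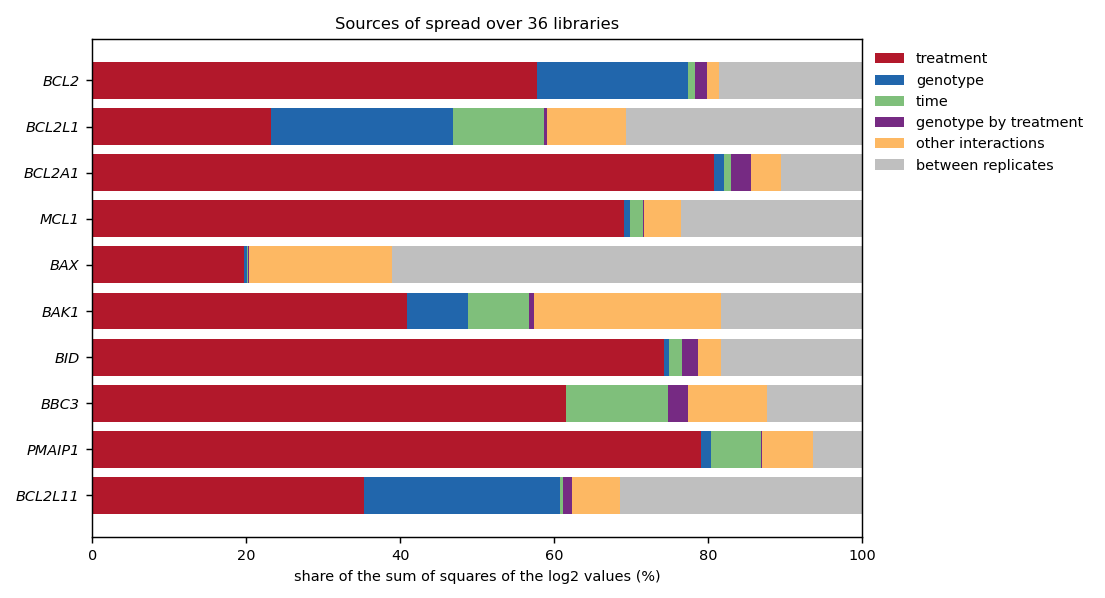
Share of the sum of squares of each member's log2 values over 36 libraries (x axis, percent) that lies with treatment, genotype, time, their interactions and the spread between replicates. Treatment holds 80.8% for BCL2A1 and 19.7% for BAX, where the spread between replicates holds 61.1%.

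Over the 12 group means, the protein-coding genes most like BCL2A1 among 15289 compared were TMPRSS13, a membrane serine protease (r = 0.992), and PSMB8, a subunit of the immunoproteasome (r = 0.990). Those most like PMAIP1 were SDC4, a cell-surface proteoglycan (r = 0.987), and RND1 (r = 0.985). Those most like BBC3 were WDR25 (r = 0.968) and IL36G, a cytokine of the interleukin-1 family (r = 0.959). Those most like BCL2 were FOXD4L4 (r = 0.981) and FOXD4L5 (r = 0.978), which are near-identical copies of each other, so their values are uncertain. These are correlations over groups that all carry the step between stimulated and vehicle cells, given as descriptions.

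The wider death machinery was read from lists of genes outside the 10, and values without single libraries were not computed for it. In the same comparisons 15.1% to 20.2% of all genes were called higher and 19.5% to 26.1% lower. Read against those shares, the counts below for the other BCL2 family genes, the apoptosome list and the p53 list lie near the background, and the lists of 5 to 8 genes are short. Among 10 genes of death receptor signalling, 6, 6 and 7 were called higher and 1, 1 and 0 lower with stimulation in KO cells, and 8, 7 and 7 higher and 1, 1 and 0 lower in WT cells. The median change of the 10 was 2.10, 1.39 and 1.48 in KO cells and 1.72, 1.53 and 1.53 in WT cells. At 6 h the death receptor FAS changed by 6.66 in KO and 5.22 in WT cells, CFLAR, which restrains caspase-8 at that receptor, by 4.49 and 3.64, the adaptor TRADD by 3.04 and 2.71, and CASP10 by 2.86 and 2.67. FADD, the adaptor of the FAS complex, was the gene called lower at 6 h, at -0.61 in KO and -0.92 in WT cells.

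Of the 12 tested of 13 other BCL2 family genes, 2, 2 and 1 were called higher and 1, 2 and 2 lower with stimulation in KO cells, and 1, 2 and 1 higher and 4, 3 and 3 lower in WT cells. BCL2L14, a less studied family member, changed by 7.05 in KO and 5.90 in WT cells at 6 h. BIK, a BH3-only protein of the endoplasmic reticulum, changed by -1.25 in KO and -1.66 in WT cells at 6 h. In WT cells at 6 h the BH3-only BAD changed by -1.45 and BOK, an effector-like member, by -1.19. In KO cells BNIP3, a mitophagy receptor, changed by 1.22, and BCL2L10 by -1.54 without a call (limma adjusted p = 0.2289). KO cells differed from WT cells in some of these genes. In stimulated cells 2, 1 and 1 of the 12 were called higher in KO at 6, 12 and 24 h and 0 lower. In vehicle cells 3, 1 and 0 were called higher in KO and 1, 1 and 0 lower. Of all genes, 8.71%, 3.45% and 5.87% were called in either direction in stimulated cells and 8.19%, 5.24% and 3.98% in vehicle cells. In stimulated cells at 6 h BOK was 2.98 ± 0.42 and BIK 2.22 ± 0.38 higher in KO (limma adjusted p = 2.86e-05 and 3.16e-04), and the BH3-only BMF was 2.04 ± 0.50 and 2.19 ± 0.50 higher at 12 and 24 h (0.0174 and 0.0089). In vehicle cells at 6 h BOK was 1.31 ± 0.42, BIK 1.81 ± 0.38 and BCL2L10 3.53 ± 0.99 higher in KO (limma adjusted p = 0.0482, 0.0022 and 0.0226). In vehicle cells BMF was 1.79 ± 0.50 higher in KO at 12 h (limma adjusted p = 0.0311), and BNIP3 was lower in KO at 6 and 12 h (-1.15 ± 0.28 and -1.02 ± 0.28, limma adjusted p = 0.0087 and 0.0288).

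Of 6 inhibitor of apoptosis genes, 2, 2 and 2 were called higher and 1, 1 and 2 lower in KO cells, and 3, 3 and 3 higher and 1, 2 and 2 lower in WT cells. BIRC3 (cIAP2), an NF-κB target, changed by 8.24 in KO and 7.11 in WT cells at 6 h, and BIRC2 (cIAP1) by 1.58 and 2.03. BIRC5 (survivin), expressed in dividing cells, changed by -1.73 and -1.93, and XIAP by 1.01 without a call and by 1.39. Between genotypes BIRC3 was lower in KO vehicle cells at 6 h (-1.72 ± 0.35, limma adjusted p = 0.0018) and higher in KO stimulated cells at 24 h (1.32 ± 0.35, limma adjusted p = 0.0245). The 12 genes of the apoptosome, caspases and mitochondrial release moved both ways, with 3, 2 and 1 called higher and 3, 3 and 3 lower in KO cells and 2, 2 and 3 higher and 3, 2 and 5 lower in WT cells. At 6 h the mitochondrial nuclease ENDOG changed by -1.41 in KO and -1.30 in WT cells, and APAF1, the scaffold of the apoptosome, by -1.26 and -1.28 without a call.

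A list of 8 transcription factors and other regulators tied to the BH3-only genes was read too. Of these, 1, 3 and 3 were called higher and 1, 3 and 2 lower in KO cells, and 1, 3 and 3 higher and 1, 2 and 2 lower in WT cells. At 24 h ATF3 changed by 6.59 in KO and 6.16 in WT cells, and DDIT3 (CHOP), a stress factor, by 3.38 and 2.75. E2F1 changed by -3.54 and -3.93, and TP73 by -2.38 and -3.06. Of 12 genes of the p53 pathway outside the family, 2, 1 and 3 were called higher and 2, 3 and 2 lower in KO cells, and 2, 2 and 2 higher and 2, 3 and 4 lower in WT cells. SESN2 changed by 3.91 in KO and 3.38 in WT cells at 24 h, the cell cycle inhibitor CDKN1A by 2.36 and 2.38, and SESN1 by -3.23 and -1.86. Of 5 genes that set the turnover of MCL1 protein, HUWE1, a ubiquitin ligase for MCL1, was called higher at 6 h (1.82 in KO and 1.74 in WT cells), and no other was called with stimulation.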

How the data were processed

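RNA was extracted with Qiagen RNeasy and libraries were made with the KAPA HyperPrep kit with RiboErase, per the labels' protocols. Reads were trimmed with cutadapt 1.9.1 and aligned with GSNAP to GRCh37.p5, per the submitters' processing notes. The counting step, its use of strand, the normalization and the offset inside the logarithm are not given in the sources used here. The authors deposited 1 table of log2 values for 21599 Entrez gene IDs, of which 20609 matched a RefSeq symbol and 990 did not. The library medians of the deposited log2 values lay between 5.4691 and 5.4753, so the authors' values were used without further scaling, and depth is unknown.

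Genes at or above a log2 value of 3.32 (a linear value of 10) in at least 3 of 36 libraries were kept, 21232 in all. limma 3.58.1 in R 4.3.3 fitted 12 group means to the 36 libraries with a mean-variance trend, which left 24 residual degrees of freedom, and 20 comparisons were adjusted separately by the Benjamini-Hochberg method. The fit was tested on simulated data. Alternatives were the filter, the trend, a linear pseudocount of 5, quantile normalization, median centring, the compared libraries alone, the replicate number as a block and each library left out. The members and gene lists were chosen with earlier results of these data known. The text names the 10 members, ACOD1, for the 4 members with the widest range of group means the 2 protein-coding genes most correlated with each, and up to 4 genes per list with the largest change in the comparison described. FADD falls outside that rule and was named after its values were seen. Some genes that the rule names are not reported here.

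The labels number the replicates 1 to 3 in each group and do not say that a number is a shared culture or day. Deviations from the group means of same-numbered libraries correlated above 0.1 in every pair in 9 of the 12 comparisons between 2 treatments or genotypes (range -0.15 to 0.589 over the 12), and in 3 of the 4 comparisons of times. Those comparisons were taken as paired by number, and their blocked values stand beside results whose call the block changed. RefSeq promoter windows are on GRCh38.p14, and motifs were searched on both strands. Analyses used Python 3.11.15, numpy 2.4.6, pandas 2.3.3 and matplotlib 3.10.9.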

Additional observations from a re-analysis of the deposited data

How the results depend on the processing

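No member's change turned its direction where it was called, under any alternative run. A pseudocount of 5, quantile normalization and median centring changed none of 200 member values' calls each, and the stricter filter none of the 160 values of the 8 members it tested. Median centring could change little, because the library medians already lay between 5.4691 and 5.4753. With the libraries compared alone, 5 members in place of 7 were called with stimulation in KO cells at 6 h (BCL2 and BCL2L1 lost), 6 in place of 7 in WT cells at 12 h (BBC3 lost) and 4 in place of 6 in WT cells at 24 h (BCL2 and BID lost). In stimulated cells at 24 h the count of 1 became 0 with no filter, with the stricter filter (which does not test BCL2L11), without the mean-variance trend and with the libraries compared alone, and 2 with the replicate block. The count of 1 at 6 h became 0 with the libraries compared alone, and so did the 3 members of KO stimulated cells between 24 and 6 h, while WT stimulated cells there went to 1. With the replicate block, 1 member was called in vehicle cells at 24 h (BCL2), 1 in the mean difference of responses (BCL2A1, limma adjusted p = 0.0173, in a comparison whose numbers did not pair) and 4 in WT stimulated cells between 24 and 6 h. The block also called BCL2A1 in KO stimulated cells between 24 and 6 h (limma adjusted p = 0.0108), where the numbers did not pair either, and it removed no member call. Leaving out 1 library gave 0 to 1 members in stimulated cells at 6 h, 0 to 2 at 24 h, 0 to 1 in vehicle cells at each time, 0 to 1 for the mean difference of responses and 1 to 4 for KO stimulated cells between 24 and 6 h. Of 1680 member values so computed, 43 lost and 13 gained a call. Where this left a group with 2 libraries, its spread was taken from all groups. Without the 6 KO libraries of replicate 2, chosen after seeing the data, 1 member was called in stimulated cells at 12 h (BAK1), 1 in vehicle cells at each time, 1 in the difference of responses at 6 h (2.98, limma adjusted p = 0.0142) and at 12 h (2.86, limma adjusted p = 0.0172) and 1 on their mean, each of these being BCL2A1. The cause of these shifts was not tested. With 3 libraries a group intervals are wide, and that of BCL2A1 with stimulation in KO cells at 6 h ran from 5.88 to 9.35.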

Other observations

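After the 12 group means were removed, several members varied together from library to library. Among the 45 pairs of members, 12 passed a two-sided permutation test within groups (100000 resamples, Benjamini-Hochberg over the 45 pairs). The share of pairs of other genes that would pass the same test was not computed, so this count has no background beside it. MCL1 and BAX moved in opposite directions (Pearson r = -0.87, permutation p = 4.0e-05, adjusted 6.0e-04, Spearman rho = -0.83, permutation p = 3.0e-05, adjusted 6.0e-04, 36 libraries), and r was -0.82 without KO stimulated 6 h replicate 2 and WT stimulated 24 h replicate 3, the 2 libraries farthest from the median of MCL1. MCL1 and BCL2 moved together (r = 0.77, permutation p = 3.0e-05, adjusted 6.0e-04, rho = 0.77, permutation p = 4.0e-05, adjusted 6.0e-04), with r = 0.76 without WT stimulated 24 h replicate 2 and WT vehicle 24 h replicate 2. BCL2A1 and BID also moved together (r = 0.65, permutation p = 2.0e-05, adjusted 6.0e-04, rho = 0.73, permutation p = 2.0e-05, adjusted 6.0e-04), with r = 0.65 without KO vehicle replicate 2 at 6 and 12 h. Both genes read higher in replicate 2 than in the mean of replicates 1 and 3 in every KO group. The remaining KO libraries of replicate 2 stayed in that value. Of the 21231 other genes tested, 0.513% were at least as opposed to MCL1 as BAX was, 9.94% followed MCL1 at least as closely as BCL2 did, and 0.975% followed BCL2A1 at least as closely as BID did. Same-numbered libraries of different groups deviate together, so the 36 libraries are not fully independent and these p-values may be too small. The pairs were looked at after the values were seen.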
